A study of Mus musculus with 5 samples.

Results

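The genes described here carry the insulin and insulin-like growth factor (IGF) signal. They are the ligand genes Igf1 and Igf2, the receptor genes Igf1r and Igf2r, the binding protein genes Igfbp3, Igfbp4 and Igfbp5, and the docking protein genes Irs1, Irs2 and Irs4. They were 10 of 18193 genes, and 27 of 45037 probe sets carried one of their symbols and no other. For a gene with several probe sets, the brightest one on average over the 5 arrays was used. The members were picked by name with results of these data in view, so their values are given as a description, and no p-value below is independent support.

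Affymetrix arrays measured RNA of the mouse embryonic stem cell line E14 in 5 samples. The groups were wild type (WT, 2 arrays) and Trip12 mut/mut, homozygous for a mutation in the ubiquitin ligase gene Trip12 (3 arrays). Cells of both groups grew on mouse embryo fibroblast feeder cells, in a medium with 14% serum replacement and 100 units/ml of the cytokine LIF, to which 1% fetal bovine serum was added. The sources used here do not say what the Trip12 mutation is, how many clones were used or whether feeder cells were removed before RNA extraction. The labels call the arrays biological replicates without saying that they came from separate cultures, so the p-values measure the spread between these arrays, which may be technical.

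IGF1 and IGF2 bind the IGF1 receptor, a tyrosine kinase, which phosphorylates the insulin receptor substrates. These docking proteins recruit PI3-kinase, which activates AKT and mTOR and keeps FOXO transcription factors out of the nucleus. The IGF2 receptor has no kinase and carries IGF2 to lysosomes, and the binding proteins hold IGFs outside the cell. The serum replacement used with stem cells contains insulin, and fibroblasts are a known source of IGFs and IGF-binding proteins.

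The 3 mutant arrays did not behave as one group. Across 45037 probe sets, the array labelled Trip12 mut/mut replicate 1 differed from the 2 WT arrays by more than 2-fold at 0 probe sets, whereas replicate 2 differed from them at 475 and 545 and replicate 3 at 293 and 297. The brightest Trip12 probe set, the check on the labels, read 10.17 and 10.25 in WT and 10.18, 12.09 and 12.57 on the mutant replicates 1, 2 and 3. Of the other 6 Trip12 probe sets, 3 were higher on replicates 2 and 3, by 0.50 to 1.12 on the log2 scale, and 2 were dim. The sixth went the other way, at 6.11 and 6.10 in WT and 6.11, 5.69 and 5.24 on the mutant replicates. The place of the probe sets relative to the mutation is not stated in the labels, so they do not settle which arrays carry it. The results of the 10 genes are therefore given over all 5 arrays as labelled and again without the array labelled replicate 1. In the latter, called the 4-array comparison below, only the 11626 genes with at least 2 of the 4 arrays above the median of all probe sets, 5.52, were tested. That array was set aside for its values, which makes the p-values of the 4-array comparison too favourable.

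On the mutant replicates 2 and 3, 7 of the 10 genes were higher than on both WT arrays, against 26.7% of all genes. Irs4 was lower than on both, against 17.5%, while Irs2 and Igfbp3 did neither. Among genes that were not dim, the shares were 35.2% and 22.1%. Irs4 was 4.04-fold and 5.25-fold lower than the WT mean, and Igf1 was 1.51-fold and 1.62-fold higher. On the array labelled replicate 1 all 10 genes lay between -0.16 and 0.06 of their WT mean on the log2 scale. Over all 5 arrays 0 of the 10 genes passed limma at an adjusted p of 0.05 (adjusted over 18193 genes), against 0% of all genes, and 0 had an unadjusted p below 0.05, against 214 genes in all. Leaving out mutant replicate 1 alone again gave 0 of 10 (smallest adjusted p = 0.0785), against 0% of all genes. In the 4-array comparison 2 of 10 passed, against 4.64% of the genes tested. These were Irs4, lower as were 1.34% of genes, and Igf1, higher as were 3.29%. An unadjusted p below 0.05 was found there for 7 of the 10, against 28.8% of genes. Irs4 was bright enough to be tested only through the WT arrays, where it is high, so these counts are a description and nothing is read from them.

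**Figure D1:**
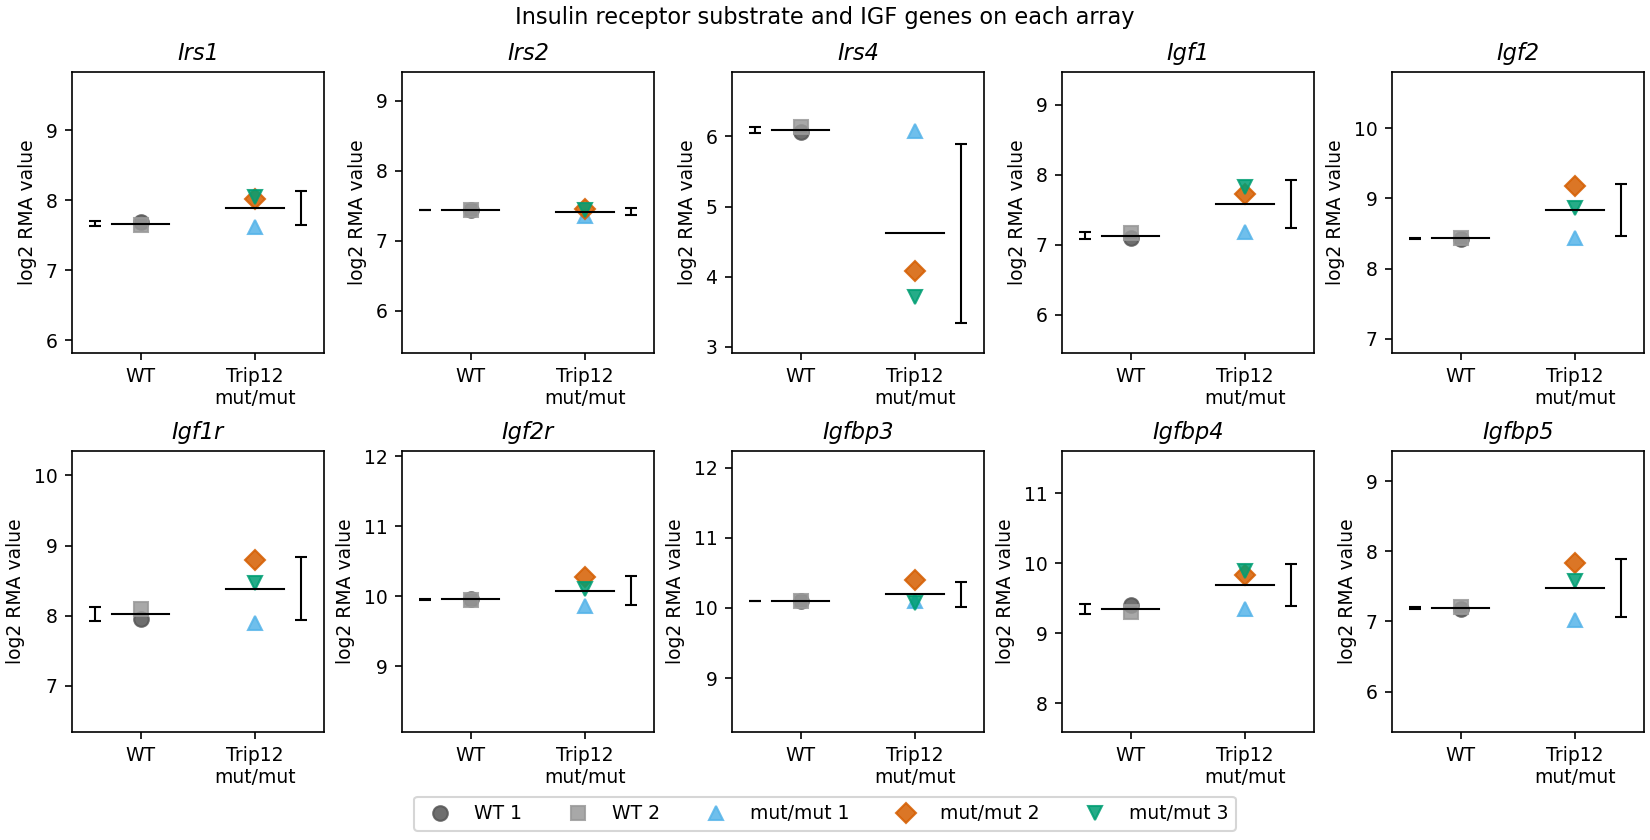
Log2 RMA value (vertical axis, the same span in each panel) of the 10 genes on the 2 WT and 3 Trip12 mut/mut arrays (horizontal axis). Symbols are single arrays, horizontal lines group means and error bars SDs; mut/mut 1 sits beside the WT arrays in every panel, and Irs4 is the only gene with mut/mut 2 and 3 far below them.

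Among the docking proteins the genes did not move alike. Irs4, the X-linked member of the family, read 6.06 and 6.13 on the WT arrays. It read 6.08 on the array labelled replicate 1, 4.08 on replicate 2 and 3.70 on replicate 3. The first 3 of these arrays lay within 0.07 of each other, and replicates 2 and 3 lay well below them. As labelled, the groups overlapped. The mean was 6.10 ± 0.05 (SD, n = 2) in WT and 4.62 ± 1.28 (SD, n = 3) in the mutant, a difference of -1.47 with an SE of 0.79 (limma, adjusted p = 0.748). In the 4-array comparison the difference was -2.20 with an SE of 0.15, or 4.61-fold lower (limma, adjusted p = 0.0414). Only 6 of the 11626 genes had a more negative difference there. Both low arrays were below the median of all probe sets, so the fold rests in part on dim values. The other Irs4 probe set held a single value, 3.80, on all 5 arrays and gave no information.

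Irs1, the docking protein first found as a substrate of the insulin receptor, read 7.69 and 7.64 in WT and 7.61, 8.02 and 8.04 on the mutant replicates 1, 2 and 3. Replicates 2 and 3 lay above the other 3 arrays and were 1.28-fold and 1.29-fold the WT mean. The difference was 0.22 with an SE of 0.16 over all 5 arrays (limma, adjusted p = 0.748), and 0.36 in the 4-array comparison (adjusted p = 0.0635).

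Irs2, the docking protein that FOXO factors are known to induce in liver, read 7.44 and 7.44 in WT and 7.35, 7.45 and 7.44 on the mutant replicates. All 5 arrays fell within a range of 0.10, and the lowest was the array labelled replicate 1. The difference was -0.03 with an SE of 0.05 over all 5 arrays (limma, adjusted p = 0.854) and 0.0041 in the 4-array comparison (adjusted p = 0.976). Irs1 and Irs2 each had a single probe set, so no second probe set bears on either.

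The sequence upstream of the docking protein genes is shown because these 3 genes, of 1 family, gave 3 different patterns. Sequences are from RefSeq on GRCm38.p6, 250 bases upstream of the annotated start, on the gene's strand, and all 10 genes matched. The hexamer CACGTG, an E-box read the same on both strands and bound by factors such as USF and MYC, was present upstream of Irs1, Irs2, Irs4 and Igf2r, which is 4 of the 13 upstream windows of the 10 genes (Igf2 has 4 windows), against 6.02% of the 32851 windows in the table. The hexamer itself holds a CpG dinucleotide. The windows of Irs1, Irs2, Irs4 and Igf2r had 28, 34, 17 and 27 of these, against a median of 6. The share over all windows is not matched for CpG content, so no excess is read from it. The windows of 36 bases around the hexamer, which is in capitals, are as follows.
Irs4, chrX:141725346-141725381, minus strand: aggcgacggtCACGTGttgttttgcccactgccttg
Irs2, chr8:11008948-11008983, minus strand: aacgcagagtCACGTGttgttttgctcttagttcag
Irs1, chr1:82291529-82291564, minus strand: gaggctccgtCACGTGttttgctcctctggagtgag

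Irs2 and Irs4 shared the 17-base run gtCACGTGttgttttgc, the longest stretch common to both windows, which starts at base 205 of 250 in Irs2 and at base 95 in Irs4. It was found in 2 of the 32851 windows, searched on both strands, and these were Irs2 and Irs4. The run CACGTGttttgc of Irs1 was found in 3, Irs1 among them. Both runs were searched after the sequences had been seen. Irs4 was lower on replicates 2 and 3 and Irs2 held its level. Whether the shared run plays a part in either was not tested. The full upstream window of Irs4, with the hexamer in capitals, had 17 CpG dinucleotides, against a median of 6 over all windows.
Irs4, chrX:141725218-141725467, minus strand: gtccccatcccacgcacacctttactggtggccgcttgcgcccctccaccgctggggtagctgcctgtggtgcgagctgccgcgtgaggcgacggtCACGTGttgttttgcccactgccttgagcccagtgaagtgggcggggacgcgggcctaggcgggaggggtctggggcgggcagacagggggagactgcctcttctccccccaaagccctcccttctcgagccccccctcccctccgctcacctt

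The core motif of FOXO factors, GTAAACA on either strand, was found in 0 of the 13 upstream windows of the 10 genes, against 3.17% of all windows. The GC box GGGCGG, on either strand, was found in 7 of the 13, against 32.7%, and TATAAA in 1, that of Igfbp4, against 12.4%. Igf1, the gene that passed as higher, had 5 CpG dinucleotides upstream, and Igf1r had 42. The shares over all windows are not matched for CpG content here either. The motif counts are letter matches and not measured binding sites, and a motif missing from 250 bases says nothing of the factor.

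Both ligand genes were higher on the mutant replicates 2 and 3. Igf1, which encodes the ligand of the IGF1 receptor, read 7.09 and 7.16 in WT and 7.18, 7.73 and 7.83 on the mutant replicates 1, 2 and 3. The groups did not overlap as labelled, but the array labelled replicate 1 cleared the higher WT array by only about 0.02. The mean was 7.13 ± 0.05 (SD, n = 2) in WT and 7.58 ± 0.35 (SD, n = 3) in the mutant, a difference of 0.45 with an SE of 0.22 (limma, adjusted p = 0.748). In the 4-array comparison Igf1 rose by 0.65 with an SE of 0.08, or 1.57-fold (limma, adjusted p = 0.0454). The other 3 Igf1 probe sets, with WT means of 5.38, 5.61 and 5.63, differed from WT by 0.39, 0.40 and 0.23 on the mean of replicates 2 and 3. On the one at 5.61, replicate 3 lay at -0.03 and replicate 2 at 0.83, so the increase there rested on 1 array.

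Igf2, the imprinted growth factor gene expressed from the paternal allele, read 8.42 and 8.44 in WT and 8.44, 9.18 and 8.87 on the mutant replicates. Here too the groups did not overlap as labelled, with the array labelled replicate 1 less than 0.01 above the higher WT array. Igf1 and Igf2 were the 2 of 10 genes with no overlap over all 5 arrays, both higher, against 5.73% of all genes. Igf2 was 1.68-fold and 1.35-fold the WT mean on replicates 2 and 3. The difference was 0.40 with an SE of 0.23 over all 5 arrays (limma, adjusted p = 0.748) and 0.59 with an SE of 0.13 in the 4-array comparison (adjusted p = 0.0803). The second Igf2 probe set was dim, at 3.23 in WT, with -0.08 as the mean difference on replicates 2 and 3.

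Of the receptors, Igf1r was higher on replicates 2 and 3 and Igf2r by less. Igf1r read 7.96 and 8.10 in WT and 7.90, 8.79 and 8.47 on the mutant replicates, or 1.70-fold and 1.36-fold the WT mean on the last 2. The difference was 0.36 with an SE of 0.29 over all 5 arrays (limma, adjusted p = 0.748) and 0.61 with an SE of 0.14 in the 4-array comparison (adjusted p = 0.0886). Its 5 probe sets did not all move together. The one at 8.04 in WT lay 0.62 and 0.40 above WT on replicates 2 and 3. The one at 7.66 lay at -0.17 and 0.34, on opposite sides of WT, and the 2 at 5.29 and 4.80 lay no more than 0.11 from WT.

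Igf2r, a maternally expressed gene in mice and the receptor that clears IGF2, read 9.96 and 9.95 in WT and 9.86, 10.28 and 10.10 on the mutant replicates. Replicates 2 and 3 lay above WT and the array labelled replicate 1 below it. The difference was 0.12 with an SE of 0.14 over all 5 arrays (limma, adjusted p = 0.765) and 0.23 with an SE of 0.09 in the 4-array comparison (adjusted p = 0.197). Its second probe set, at 9.43 in WT, was 0.28 and 0.07 above WT on replicates 2 and 3.

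The 3 binding protein genes differed in how clearly they stood apart. Igfbp4, which encodes a binding protein cleaved by the protease PAPP-A, read 9.40 and 9.30 in WT and 9.34, 9.84 and 9.89 on the mutant replicates. Both high arrays were at least 0.43 above the higher WT array. The difference was 0.34 with an SE of 0.19 over all 5 arrays (limma, adjusted p = 0.748) and 0.52 with an SE of 0.08 in the 4-array comparison (adjusted p = 0.0527). All 6 Igfbp4 probe sets were above the WT mean on both replicates 2 and 3, by 0.96 and 0.66 on the one at 7.77 in WT and by 0.09 and 0.06 on the one at 5.66.

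Igfbp5, an IGF-binding protein made by many mesenchymal cells, read 7.18 and 7.20 in WT and 7.03, 7.83 and 7.58 on the mutant replicates. The array labelled replicate 1 was the lowest of the 5 and replicates 2 and 3 the highest. The difference was 0.29 with an SE of 0.26 over all 5 arrays (limma, adjusted p = 0.748) and 0.52 with an SE of 0.11 in the 4-array comparison (adjusted p = 0.0779). The other Igfbp5 probe set, at 7.09 in WT, did not follow, with 0.10 and -0.02 on replicates 2 and 3.

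Igfbp3, the main carrier of IGFs in serum, read 10.11 and 10.11 in WT and 10.11, 10.40 and 10.07 on the mutant replicates 1, 2 and 3. Replicate 2 alone stood above, at 1.22-fold the WT mean. The difference was 0.09 with an SE of 0.12 over all 5 arrays (limma, adjusted p = 0.782) and 0.13 with an SE of 0.13 in the 4-array comparison (adjusted p = 0.543). The identical values on 3 arrays are a feature of the deposited table, in which 10 of the 27 probe sets repeat a value between arrays. Over all probe sets, the 2 WT arrays held identical values at 20.5%, WT 1 and mutant replicate 1 at 21.1%, and mutant replicates 2 and 3 at 10.3%. The sources used here do not give the cause. Such repeats lower the spread within groups that enters the limma p-values. The second Igfbp3 probe set read one and the same value on all 3 mutant arrays, 0.05 above its WT mean.

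**Figure D2:**
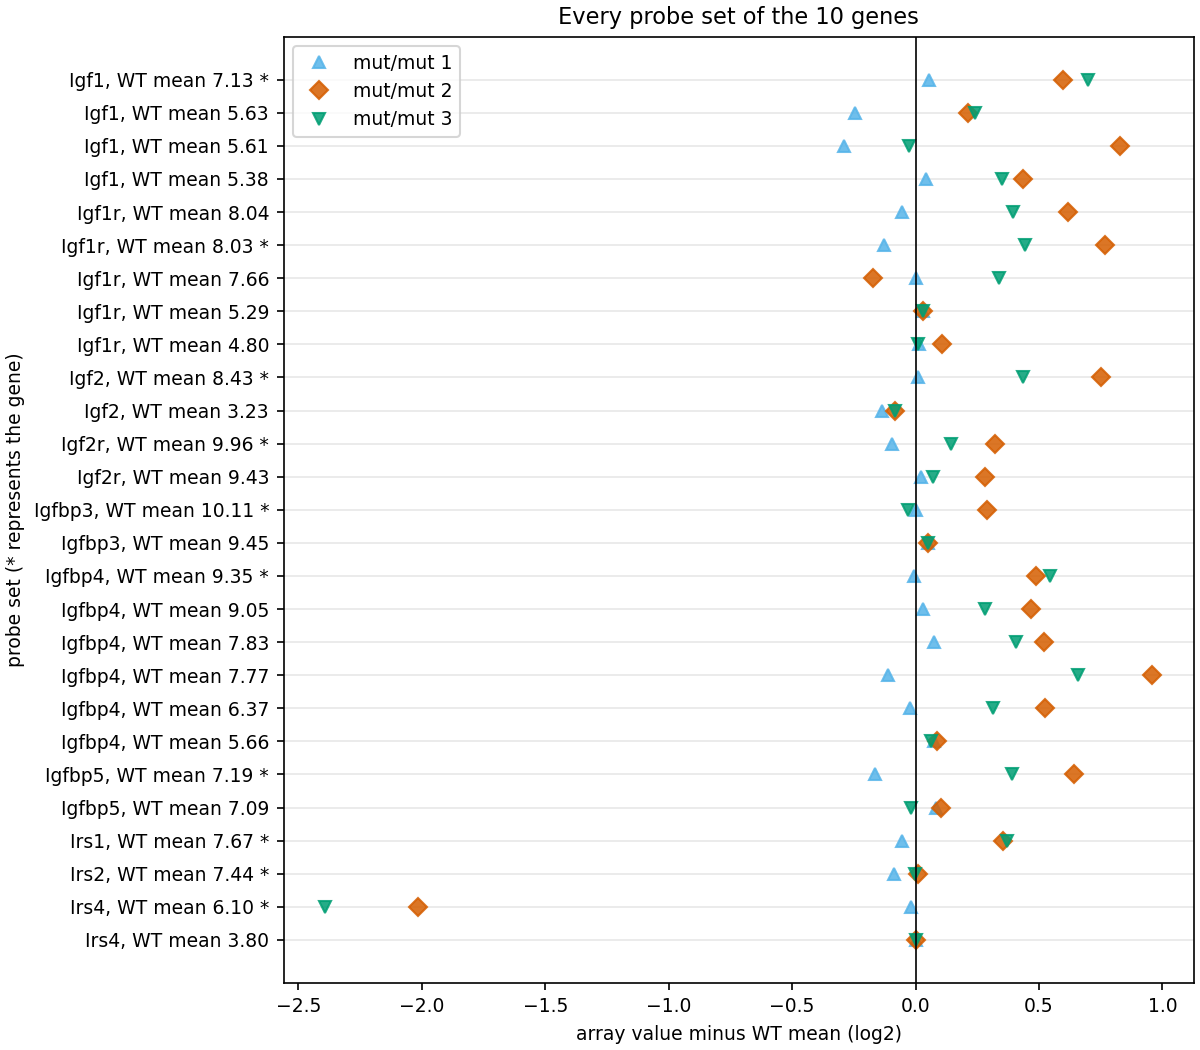
Difference of each mutant array from the WT mean (horizontal axis, log2) for all 27 probe sets of the 10 genes (vertical axis, with the WT mean; a star marks the probe set that represents the gene). Of the 23 probe sets with at least 2 arrays above 5.52, 17 have mut/mut 2 and 3 above both WT arrays, 1 has them below and 5 have neither. The shares over all probe sets were not counted. Over genes, with dim ones removed, they were 35.2% higher and 22.1% lower. The Igf1 probe set at 5.38 in WT met the limit of 5.52 only through mut/mut 2 and 3, where it is high. The Irs4 probe set counted as below met it only through the WT arrays and mut/mut 1, where it is high. The counts are therefore a description.

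Without the array labelled replicate 1, the 2 groups did not overlap for 8 of the 10 genes. For 7 the mutant was higher, against 26.7% of all genes, and for 1 it was lower, against 17.5%. With dim genes removed those shares were 35.2% and 22.1%. The median difference of the 10 genes was 0.44, and that of all genes 0.02, or 0.046 with dim genes removed. Besides Irs4 and Igf1, which passed, 5 genes had an adjusted p between 0.05 and 0.1 in limma, namely Irs1, Igf2, Igf1r, Igfbp4 and Igfbp5. The share of all genes in that band was not counted, so nothing is read from the 5. An unadjusted p below 0.05 was found for 28.8% of the genes tested there. When limma was run over probe sets in place of genes, 0 of the 23 probe sets tested passed (smallest adjusted p = 0.0596), against 0.066% of 22734, so the calls of Irs4 and Igf1 were lost. Replicate 2 was above replicate 3 in 7 of the 10 genes, by up to 0.38 on the log2 scale.

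The genes whose pattern was most like that of Irs4, which had the widest range of the 10 over the 5 arrays (2.42), were Pim2, Car3, Lef1 and Cldn7. Likeness was the Euclidean distance between values centred on each gene's 5-array mean. It was 0.10, 0.15, 0.25 and 0.26 in that order, against a median of 2.45 over all genes. A flat gene lies as far from Irs4 as the spread of Irs4 itself, so the median does not say how rare such nearness is. Pim2, a serine/threonine kinase gene, read 9.85 and 9.95 in WT and 9.84, 7.96 and 7.56 on the mutant replicates 1, 2 and 3. Car3 is a carbonic anhydrase gene, Lef1 a transcription factor gene of Wnt signalling and Cldn7 a tight junction gene. Their differences in the 4-array comparison were -2.14, -2.07, -2.06 and -2.35. Being near Irs4 on these arrays means being low on replicates 2 and 3, so no test of that is given.

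**Figure D3:**
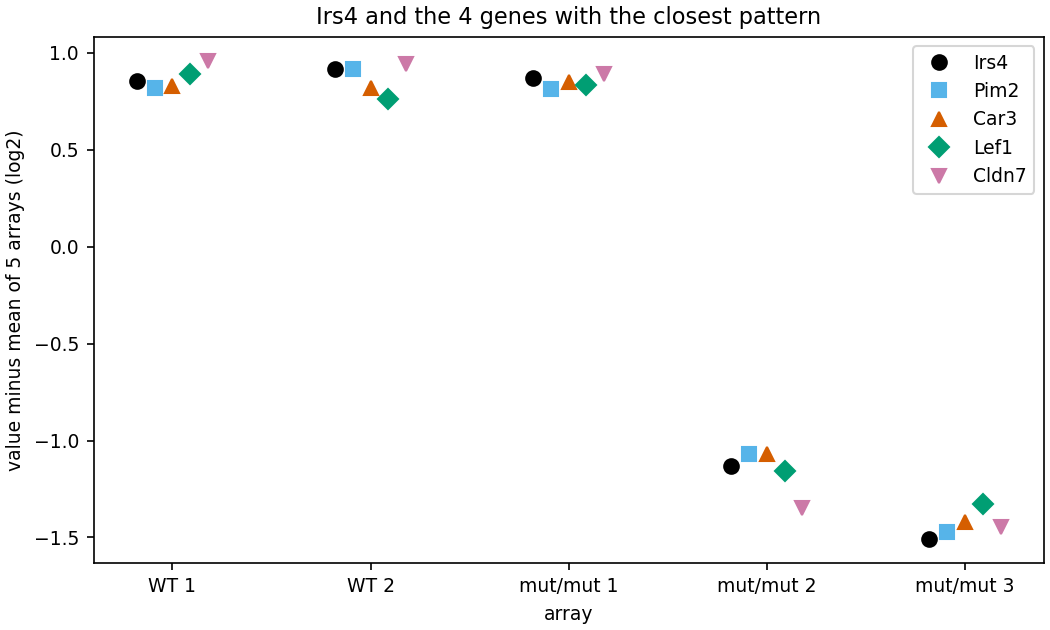
Value minus the gene's mean over the 5 arrays (vertical axis, log2) on each array (horizontal axis) for Irs4 and the 4 genes at the smallest distance from it. All 5 genes lie between 0.76 and 0.96 on the WT arrays and mut/mut 1, and between -1.51 and -1.07 on mut/mut 2 and 3.

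The rest of the pathway was taken from 10 lists with 122 genes, of which 114 were measured and 101 bright enough for the 4-array comparison. Over all 5 arrays 0 of these genes passed limma. In the 4-array comparison 2 rose and 2 fell, or 3.96% of the genes tested, close to the 4.64% of all genes. Their median difference without the array labelled replicate 1 was 0.13, against 0.02 for all genes, and 75 of 114 were above 0, or 65.8%, against 54.9% of all genes. With dim genes removed, the values for all genes were 0.046 and 57.3%. Differences of single pathway genes below are from the 4-array comparison. Over all 5 arrays, those of the 4 genes that passed there were 0.59 for Htra1, 0.67 for Txnip, -0.60 for Igf2bp3 and -0.44 for Mest (limma, adjusted p = 0.748 for each).

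Insulin and its receptors had 0 of 2 genes passing. Insr, the insulin receptor gene, read 6.71 and 6.47 in WT and 6.67, 7.05 and 6.83 on the mutant replicates, a 4-array difference of 0.35 (limma, adjusted p = 0.194). Ins2 differed by -0.13 (adjusted p = 0.645). Of 4 other binding protein genes tested 0 passed. Igfbp7, a related protein with weak IGF binding, differed by 0.65 (adjusted p = 0.0912) and Igfbp6, which prefers IGF2, by 0.56 (adjusted p = 0.0534). The other 2 tested, added after their values were seen, lay below WT, Igfbpl1 at -0.38 (adjusted p = 0.0785) and Igfbp2 at -0.20 (adjusted p = 0.315). The median of all 6 measured was -0.011.

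Of 5 genes tested from the list on the cleavage of binding proteins, namely Pappa, Adam12, Htra1, Stc1 and Stc2, 1 rose and 0 fell. Htra1, a secreted serine protease gene, read 9.85 and 9.85 in WT and 9.73, 10.94 and 10.64 on the mutant replicates. It rose by 0.94 with an SE of 0.12 in the 4-array comparison, or 1.92-fold (limma, adjusted p = 0.0476).

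Of 2 genes for IGF2 mRNA-binding proteins, which stabilise and transport Igf2 and other mRNAs, 1 fell. Igf2bp3 read 9.85 and 9.97 in WT and 9.84, 9.18 and 8.92 on the mutant replicates. It fell by 0.86 with an SE of 0.12, to 0.551-fold of WT (limma, adjusted p = 0.0495). Igf2bp1, added after its values were seen, read 11.20 and 11.36 in WT and 11.22, 10.44 and 10.63 on the mutant replicates (4-array adjusted p = 0.0514). So on replicates 2 and 3 the values of both mRNA-binding protein genes were lower while that of Igf2 was higher.

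For the lists downstream of the receptors, the share to compare with is the 4.64% of all genes tested that passed. Counts of 0 in lists this short say little. Of 17 docking proteins and adaptors 0 passed; Dok1, another docking protein gene, differed by 0.60 and the adaptor gene Grb2 by 0.43 (limma, adjusted p = 0.053 for each). Of 21 genes of PI3-kinase, AKT and mTOR 0 passed, with a median difference of 0.13, and the 2 largest were Gsk3b (0.42) and the kinase gene Pdpk1 (0.42), with adjusted p of 0.125 and 0.201. Of 18 inhibitors 0 passed. Socs2, a feedback inhibitor of growth hormone and IGF signalling, read 10.32 and 10.37 in WT and 10.37, 9.04 and 9.65 on the mutant replicates (0.500-fold without replicate 1, adjusted p = 0.0869), and the AKT-binding pseudokinase gene Trib3 differed by 0.57 (adjusted p = 0.053).

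Of 16 FOXO factors and targets 1 rose and 0 fell. Txnip, an inhibitor of glucose uptake, read 10.34 and 10.40 in WT and 10.33, 11.52 and 11.29 on the mutant replicates, and rose by 1.03 with an SE of 0.11 (limma, adjusted p = 0.042). Of 7 mannose 6-phosphate sorting genes, which work beside Igf2r, 0 passed, with Gnptab at -0.37 (adjusted p = 0.308) and Gnptg at 0.27 (adjusted p = 0.262). Of 9 other imprinted growth genes 1 fell and 0 rose. Mest, like Igf2 expressed from the paternal allele, read 9.46 and 9.53 in WT and 9.49, 8.86 and 8.80 on the mutant replicates, and fell by 0.67 with an SE of 0.07 (adjusted p = 0.0422).

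**Figure D4:**
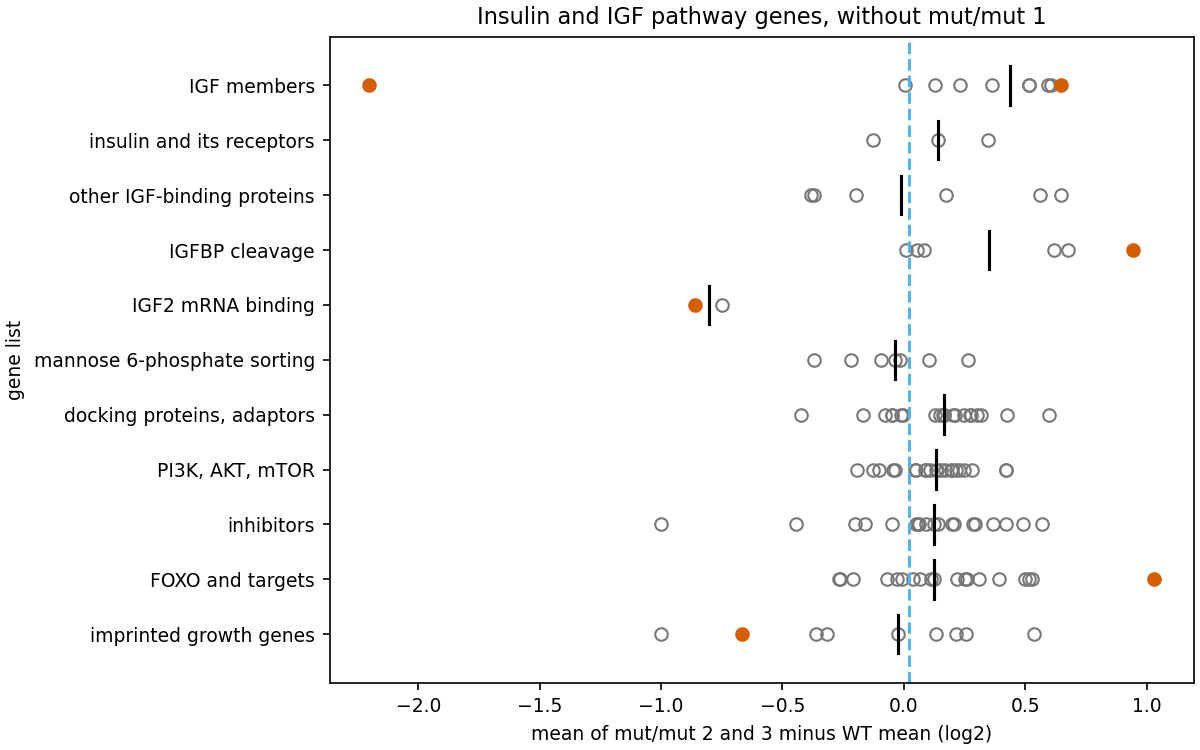
Mean of mut/mut 2 and 3 minus the WT mean (horizontal axis, log2) for each measured gene of the 10 IGF members and the 10 pathway lists (vertical axis). Filled points passed limma in the 4-array comparison and open points did not or were too dim to be tested; black bars are list medians and the dashed line is the median of all genes, 0.02.

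Most fibroblast markers were higher on the mutant replicates 2 and 3. On these arrays the ligand genes, the receptor genes, Igfbp4, Igfbp5 and also Irs1 were higher. Igfbp3 and Irs2 were not, and Irs4 was lower. Of 27 measured markers 20 were higher on both replicates 2 and 3 than on both WT arrays, against 26.7% of all genes, and 0 were lower, against 17.5%. Over genes that were not dim, these shares were 35.2% and 22.1%. Of the 26 tested in the 4-array comparison 8 rose, against 3.29% of genes, and 0 fell, the untested marker being Fap, the dimmest. Timp3, an inhibitor of metalloproteinases, had the largest difference (1.28) and was picked after its value was seen. The median difference from WT was -0.02, 0.59 and 0.49 on the mutant replicates 1, 2 and 3, against -0.04, 0.42 and 0.38 for the 10 IGF genes. The summed linear signal of the 27 markers was 58990 and 59780 in WT and 58810, 86255 and 84702 on the mutant replicates 1, 2 and 3. In bulk RNA, more cells of a type and more RNA per cell cannot be told apart. The part of fibroblast RNA in the IGF values was not tested.

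Markers of embryonic stem cells were bright on all 5 arrays, and all 16 passed the filter on dim genes. Their summed signal was 56342 and 56635 in WT and 56460, 51777 and 55135 on the mutant replicates, with 0 of 16 passing as higher and 2 as lower in the 4-array comparison, against 3.29% and 1.34% of genes. Endoderm markers had a summed signal of 1295 and 1317 in WT and 1274, 1411 and 1561 on the mutant replicates. Of the 12, 6 were too dim to be tested, including Gata4, Sox17 and Foxa2, and 0 of the other 6 passed.

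**Figure D5:**
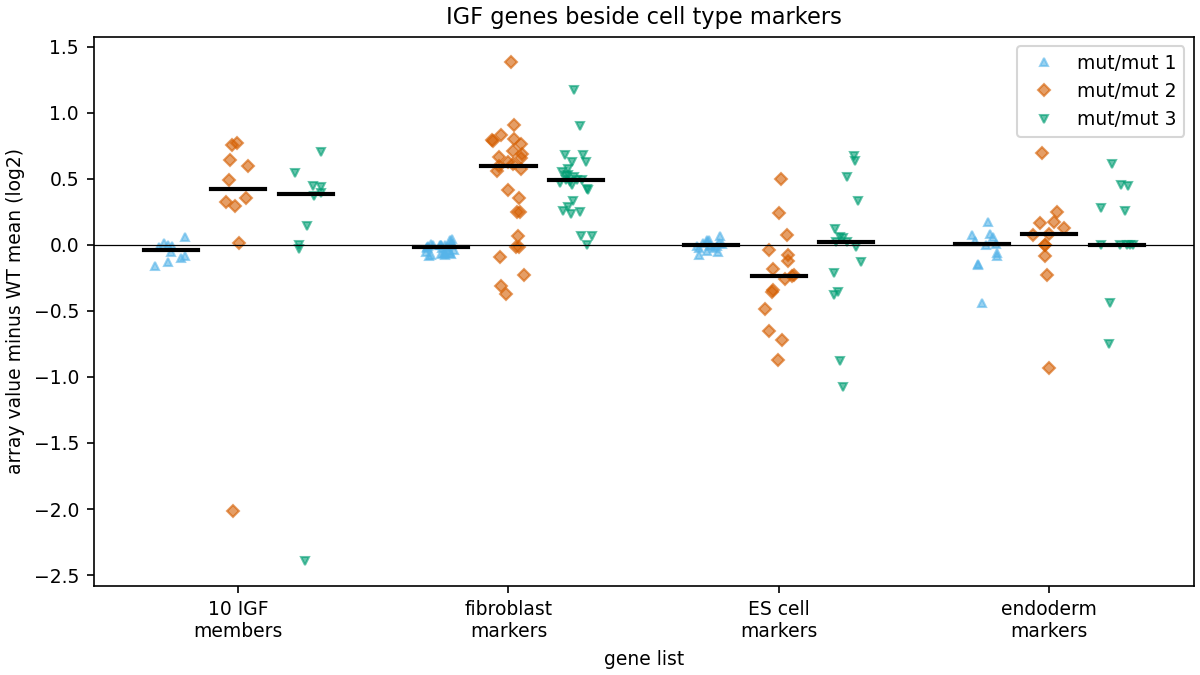
Difference of each gene from its WT mean (vertical axis, log2) on the 3 mutant arrays, for the 10 IGF members and for markers of fibroblasts, embryonic stem cells and endoderm (horizontal axis). Points are genes and bars medians; on mut/mut 2 and 3 the fibroblast medians are 0.59 and 0.49 and those of the IGF members 0.42 and 0.38, and all medians of mut/mut 1 lie near 0.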

How the data were processed

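The authors deposited 1 log2 value per probe set and array, made with RMA per the submitters' processing notes (version not stated there). RMA subtracts background, brings arrays to a common distribution and combines the probes of a set. It leaves no detection call and no total level. Of 45101 probe sets 64 controls were left out. Genes were named from the platform annotation where it gave 1 symbol, updated by gene number through a GRCm38.p6 table. Array medians lay between 5.51 and 5.55, and the number of arrays limits the precision.

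Differences are Trip12 mut/mut minus WT, from two-sided moderated tests in limma 3.58.1 (R 4.3.3) with a single genotype term, with Benjamini-Hochberg adjustment over all genes tested and a threshold of 0.05. The 4-array comparison used the same fit. The fit over all 5 arrays was tested on simulated data. The members and lists were chosen with earlier results of these data known. In each pathway list the text names up to 3 genes that passed the 4-array comparison, by smallest adjusted p, or else the 2 with the largest difference. Alternatives were other normalisations, filters, variance models, array weights, a replicate block, other probe set choices and each array left out. Python 3.11.15 with matplotlib 3.10.9 drew the figures.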

Additional observations from a re-analysis of the deposited data

How the results depend on the processing

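The count of genes past the threshold was 0 of 18193 over all 5 arrays and stayed at 0 with every alternative and every array left out, except 2 settings. With dim genes removed and Trip12 mut/mut replicate 1 left out it was 539, with 2 of the 10 IGF genes, and with a variance trend and robust estimation as well, an alternative added after the data were seen, it was 744, again with 2 (Irs4, adjusted p = 0.0256, and Igf1, 0.0381). The differences of the 10 genes kept their direction in 146 of 150 recomputations. The exceptions were Irs2, at 0.0041 in the 3 settings without mutant replicate 1, and Igfbp3, at -0.015 without replicate 2. Those 3 settings share the same differences. Removing dim genes or adding a variance trend cannot alter a difference, and the replicate block gave the same ones as leaving out replicate 3. The 150 are therefore not separate checks. With each array left out in turn, Irs2 ranged from -0.044 to 0.0041 and Igfbp3 from -0.015 to 0.15. The Irs4 difference ranged from -2.20 to -0.74, the latter with the mean of its probe sets, one of which did not vary, and was -1.02 without replicate 3. Without replicate 2, Igf2 was at 0.22, Igf1r at 0.16, Igf2r at 0.02 and Igfbp5 at 0.11. With the mean of probe sets Igf1, Igf2 and Igf1r were at 0.24, 0.15 and 0.16, and Igf1 was at 0.17 with the probe set of largest SD. The replicate number as a block gave 0 genes and 0 IGF genes. The labels give no pairing, and deviations of arrays with the same number correlated at -0.05 and -0.08. With 1 WT array left out, the lone WT array is assumed to vary like the mutant arrays.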
